A study of Mus musculus with 12 samples.

Results

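Sodium-proton exchangers of the Slc9 family were examined as 8 genes of the 24061 gene identifiers counted in mouse heart. The genes were taken by symbol, matched to their NCBI gene identifiers. They comprise the plasma membrane exchangers Slc9a2 and Slc9a5, the organelle exchangers Slc9a7, Slc9a8 and Slc9a9, the scaffold genes Slc9a3r1 and Slc9a3r2, and the exchanger cofactor Chp1. RNA came from the hearts of male mice 4 months old, 6 in each group and 1 library per heart. Both groups carried floxed alleles of Slc4a4, the gene of the electrogenic sodium-bicarbonate cotransporter NBCe1. Knockout mice (K7 to K12) also carried Cre recombinase under a β-myosin promoter, active in cardiac myocytes, which removes exon 12, while the mice labelled wild type (W1 to W6) had the floxed alleles and no Cre. The effect of Cre itself therefore cannot be told apart from that of the deletion, and cells in which that promoter is silent would keep the gene.

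Sodium-proton exchangers move a sodium ion across a membrane in return for a proton. At the plasma membrane the sodium gradient drives protons out of the cell, and in the Golgi apparatus and endosomes related exchangers let protons leak out of the lumen and so set its pH against the vacuolar proton pump. In cardiac myocytes, proton extrusion by sodium-proton exchange works beside bicarbonate uptake by sodium-bicarbonate cotransport, and both bring in sodium. The comparison asks whether the hearts of the knockout mice held other amounts of the transcripts for exchangers, their scaffolds and their cofactor.

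The libraries held 10631869 to 13327519 counts. Wild-type libraries were deeper, with 12455870 ± 842736 counts against 11274054 ± 773973 in knockout (SD, n = 6 each; exact two-sided permutation p = 0.0303). In CPM, the reads of a gene per 1000000 counted reads of its library, Slc4a4 stood at 87.1 ± 18.6 in the wild-type group and at 49.9 ± 11.4 in the knockout group (SD over 6 hearts each). Single hearts ran from 63.6 to 105.8 CPM and from 38.4 to 68.1 CPM, and 5 of the 6 knockout hearts lay under the lowest wild-type heart. K8, at 68.1 CPM, lay above W2 and W5. These counts cover the whole gene, so they do not show the loss of exon 12. Its log2 fold change was -0.81 (SE 0.14), with an edgeR adjusted p of 0.0891 after Benjamini-Hochberg correction over 13832 genes. The 8 cardiac myocyte markers, among them Myh6, Tnnt2 and Ryr2, summed to 44322 to 50678 CPM in wild type and 45103 to 48437 CPM in knockout, which fits the labelled tissue. Red cell markers (7 genes) ranged from 5651 to 29318 CPM in wild type, highest in W2, and from 4566 to 10839 CPM in knockout. Their summed means were 11564 and 6711 CPM, with a median log2 fold change of -0.82. Of the 7, 6 had an unadjusted edgeR p under 0.05, where 4.06% of all genes did, and 0 passed correction. Hba-a1 and Hba-a2, both in this sum, had the same lowest and highest CPM. Liver markers (7 genes) ranged from 5.23 to 10.4 CPM and from 5.71 to 83.4 CPM, highest in K7. The part of these markers in the results below was not tested, and values without W2 and K7 were computed.

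No gene of the set passed the test for a difference between the genotypes. All 8 passed the filter on low counts: 7 reached its level of 0.874 CPM in all 12 hearts, and Slc9a5 in all but W4. Of these, 0 of 8 passed an adjusted p of 0.05, against 0.0% of all 13832 genes. The edgeR adjusted p was 0.999 for each. DESeq2, run as an alternative, also called 0 of 8, each with an adjusted p of 0.998, against 0.057% of the 19308 genes it tested. On the 13832 genes of the edgeR fit DESeq2 also called 0 of 8, against 0.0434% of those genes, with an adjusted p of 0.893 for Slc9a9 and 0.999 for each of the others. At an unadjusted p under 0.05 edgeR gave 1 of 8, Slc9a9, where 4.06% of all genes did so. It was higher in knockout, as were 2.07% of all genes at that threshold, while 2.0% were lower. Fold changes were positive for 4 genes and negative for 4, where 50.6% of all genes were positive, with a median log2 fold change of 0.01 beside 0.00 over all genes tested. The groups overlapped for 8 of 8 genes, while 0.239% of all genes had groups that did not overlap. The 95% interval of the log2 fold change, not corrected for the number of genes, included 0 for 7 genes and lay above 0 for Slc9a9.

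**Figure D1:**
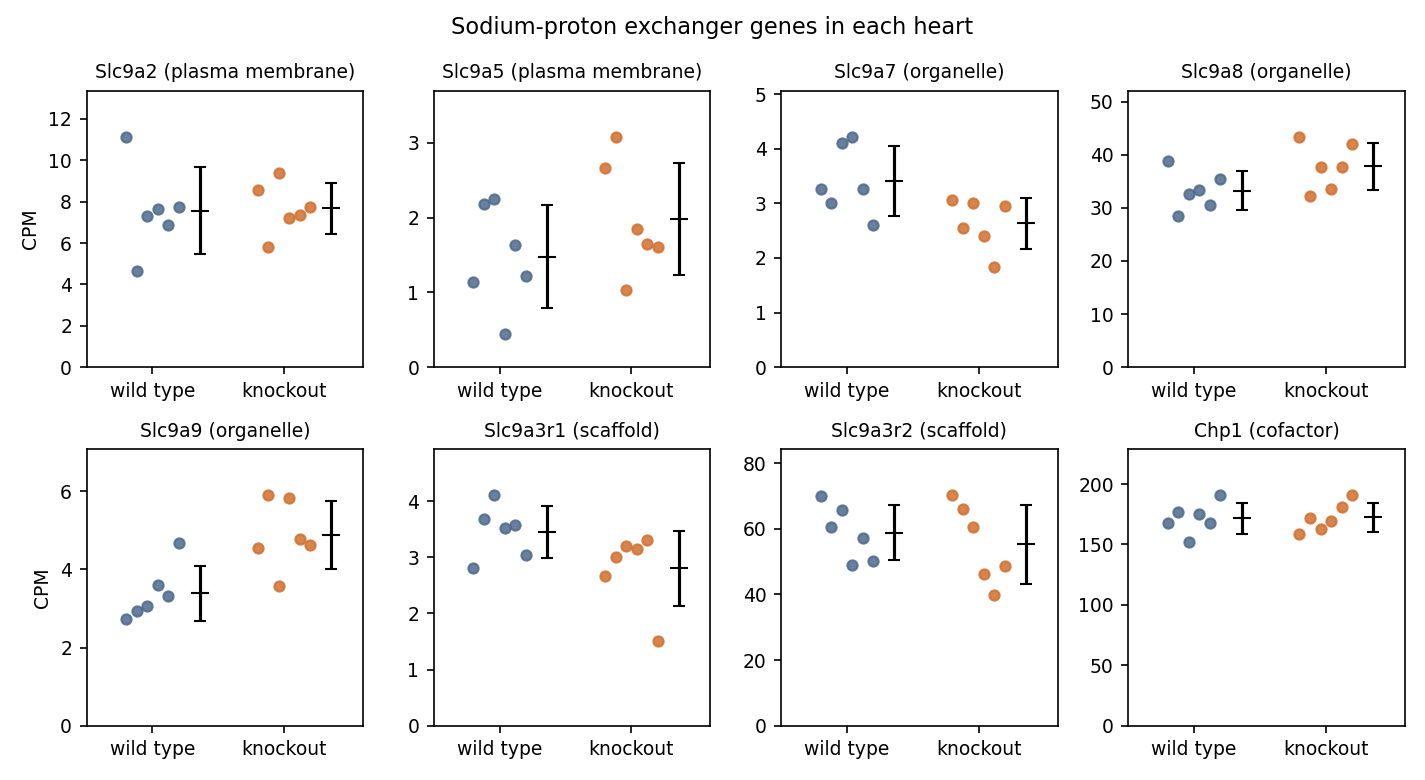
CPM of each of the 8 genes (vertical axis, per 1000000 counted reads, starting at 0) in 6 wild-type and 6 knockout hearts, with 1 point per heart and the mean ± SD at the right of each group. The groups overlap in all 8 panels; Slc9a9 sits higher in knockout, with a mean of 4.88 against 3.39 CPM, and Slc9a7 lower, with 2.63 against 3.41 CPM.

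The genes differed widely in level. Levels between genes are compared per kilobase of exon, as CPM divided by the length of the gene's merged exons. Chp1 was highest, at 49.2 CPM per kilobase on average over the 12 hearts, above 94.2% of the tested genes that had an exon length. Slc9a3r2 followed at 21.5 CPM per kilobase, above 85.9%, and Slc9a8 at 3.91 CPM per kilobase, above 46.8%. These levels did not overlap between neighbours: Chp1 exceeded Slc9a3r2 in 12 of 12 hearts by 1.71 to 3.44 times, Slc9a3r2 exceeded Slc9a8 by 3.61 to 7.31 times, and Slc9a8 exceeded Slc9a3r1 by 1.64 to 5.88 times. The other genes were low. Slc9a3r1 averaged 1.62, Slc9a2 1.09, Slc9a7 0.791, Slc9a9 0.728 and Slc9a5 0.33 CPM per kilobase, the last above 4.48% of the tested genes with an exon length. Among them the range of each gene over hearts overlapped that of the next gene in this order. Slc9a3r1 lay above Slc9a2 in 10 of 12 hearts, Slc9a2 above Slc9a7 in 9, Slc9a7 above Slc9a9 in 6, and Slc9a9 above Slc9a5 in 12.

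**Figure D2:**
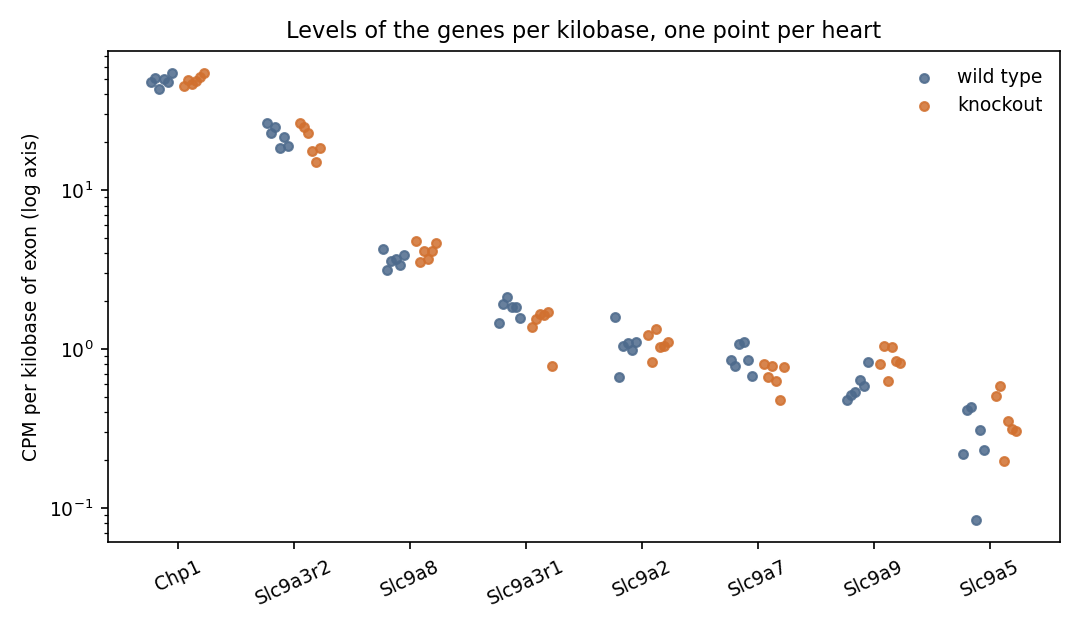
Level of each gene in CPM per kilobase of exon (log axis), ordered by mean, with 1 point per heart and wild type and knockout side by side. Chp1, Slc9a3r2 and Slc9a8 form separate steps at 49.2, 21.5 and 3.91 CPM per kilobase, and the ranges of the 5 lower genes overlap their neighbours.

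Promoters are shown for the 3 organelle exchangers, the class in which Slc9a9 and Slc9a7 had fold changes of opposite sign, and for Chp1, which had the highest level. Each sequence is the 250 bases before an annotated start site on the gene's own strand, from RefSeq (GRCm38.p6). That start need not be the outer end of the gene. The Slc9a9 window lies wholly inside the RefSeq span of its gene, which begins at 94669557. The Slc9a7 window overlaps its gene span, which runs to 20292035, and the Slc9a8 window overlaps a span that begins at 167421599. Only the Chp1 window of these lies wholly outside its gene span. Capitals mark a GC box (GGGCGG or its complement CCGCCC, the core bound by SP1) or a CCAAT box (CCAAT or ATTGG, bound by NF-Y).
Slc9a9, chr9:94669642-94669891, plus strand: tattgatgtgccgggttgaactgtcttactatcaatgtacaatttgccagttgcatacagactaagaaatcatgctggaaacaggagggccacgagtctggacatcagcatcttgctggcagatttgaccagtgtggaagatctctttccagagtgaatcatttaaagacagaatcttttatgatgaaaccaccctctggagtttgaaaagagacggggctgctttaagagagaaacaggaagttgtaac
Slc9a7, chrX:20291828-20292077, minus strand: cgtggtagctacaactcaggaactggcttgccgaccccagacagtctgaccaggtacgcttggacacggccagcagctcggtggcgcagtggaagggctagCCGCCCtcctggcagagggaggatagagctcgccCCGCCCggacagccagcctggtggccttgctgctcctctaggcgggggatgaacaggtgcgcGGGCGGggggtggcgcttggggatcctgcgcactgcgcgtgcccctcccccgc
Slc9a8, chr2:167421460-167421709, plus strand: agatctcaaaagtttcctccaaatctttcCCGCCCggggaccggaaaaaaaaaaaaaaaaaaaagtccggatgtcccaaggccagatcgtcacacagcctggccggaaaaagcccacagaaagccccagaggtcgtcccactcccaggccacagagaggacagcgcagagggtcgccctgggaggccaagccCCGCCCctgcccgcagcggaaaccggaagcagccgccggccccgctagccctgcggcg
Chp1, chr2:119547457-119547706, plus strand: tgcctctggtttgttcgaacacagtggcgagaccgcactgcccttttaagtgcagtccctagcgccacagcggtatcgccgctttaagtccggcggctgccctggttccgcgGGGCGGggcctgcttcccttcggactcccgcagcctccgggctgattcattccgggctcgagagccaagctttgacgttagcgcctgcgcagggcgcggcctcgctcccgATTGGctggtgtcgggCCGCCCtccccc
The Slc9a9 window had 42.8% G and C and 3 CpG dinucleotides, and held neither box. The Slc9a7, Slc9a8 and Chp1 windows had 69.6%, 62.0% and 67.2% G and C, with 19, 18 and 26 CpG dinucleotides. GC boxes numbered 3 in Slc9a7, 2 in Slc9a8 and 2 in Chp1, and Chp1 also had 1 CCAAT box. Across 32851 RefSeq promoter windows of the same length the median was 52.4% G and C with 6 CpG dinucleotides. A GC box was present in 32.7% of the windows and a CCAAT box in 33.8%. Searched on both strands, the TATA box TATAAA, the E-box CACGTG of lysosomal genes and the cyclic AMP element TGACGTCA gave no match in any window of the genes examined, and 12.4%, 6.02% and 1.55% of all windows held them. Of the 8 genes 7 had an entry. Slc9a5 and Slc9a3r1 held 2 and 3 GC boxes, and the upstream window of Slc9a3r2 held 4 while its second window held 0. Slc9a3r1 also held 2 CCAAT boxes, and Slc9a5 and both Slc9a3r2 windows held 0. These matches describe letters in a window and show no binding.

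Slc9a2 encodes NHE2, a plasma membrane exchanger best known from the apical face of gut and kidney epithelium. It lies on chromosome 1 from 40681712 to 40768885 (GRCm38, RefSeq). Its lowest, median and highest values were 4.65, 7.49 and 11.1 CPM in wild type, and in knockout 5.81, 7.55 and 9.41 CPM. The knockout hearts lay within the wild-type range, whose ends were W2 (low) and W1 (high). The log2 fold change of Slc9a2 was 0.02 (SE 0.17, 95% interval -0.34 to 0.38; edgeR adjusted p = 0.999), so the interval spans 0.79-fold to 1.30-fold. The sign was not stable, at -0.12 without W2 and K7. The 8 epithelial and mesothelial markers summed to 33.3 to 67.9 CPM in wild type and to 33.0 to 47.9 CPM in knockout. Of these Cdh1 and Epcam reached at most 0.178 and 0.161 CPM and Krt8 1.02 CPM, while Krt18 and Krt19 reached 3.30 and 3.73 CPM. Mesothelial Msln, Wt1 and Upk3b reached 13.5, 14.7 and 32.5 CPM. Their part in the Slc9a2 values was not tested.

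Slc9a5 encodes NHE5, an exchanger of the plasma membrane and recycling endosomes that is known mainly from brain. It lies on chromosome 8 from 105348156 to 105369881. It was the lowest of the 8 genes, with 5 to 35 reads per library. Values were 0.44, 1.42 and 2.25 CPM in wild type, and in knockout 1.03, 1.75 and 3.08 CPM (lowest, median, highest). K7 and K8 lay above every wild-type heart, and W4, with 5 reads, lay below every knockout heart. Its log2 fold change was 0.41 (SE 0.35), and its interval of -0.32 to 1.15 covers 0.80-fold to 2.21-fold (edgeR adjusted p = 0.999). The log2 fold change was 0.23 without W4 and 0.24 without K8. Over all 12 hearts its coefficient of variation was 42.7%, where counting alone gives 22.0%. Plekhg4, whose annotation overlaps Slc9a5, had 0 to 6 reads per library, and reads of the shared stretch cannot be told apart. In GENCODE M21, used for exon lengths, 0 genes overlap Slc9a5, so the overlap depends on the annotation.

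Slc9a9 encodes NHE9, an exchanger of recycling and late endosomes, and had the smallest p of the 8 genes. It lies on chromosome 9 from 94669557 to 95230453, the longest span of the set. Its values were 2.73, 3.20 and 4.69 CPM in wild type, and in knockout 3.57, 4.70 and 5.90 CPM (lowest, median, highest), from 36 to 67 reads per library. Of the knockout hearts 6 of 6 lay above the wild-type median, and 3 lay above every wild-type heart. W6 was the highest wild-type heart and K9 the lowest knockout heart. The log2 fold change was 0.52 (SE 0.19, 95% interval 0.13 to 0.92), or 1.44-fold, with an unadjusted edgeR p of 0.0121 that ranked 135th of 13832 genes. It did not pass correction (edgeR adjusted p = 0.999). Taken alone, the difference in mean CPM gave an exact two-sided permutation p of 0.0152 over 924 regroupings, uncorrected. Leaving out any 1 heart kept the log2 fold change between 0.46 and 0.63, and without W2 and K7 it was 0.51. Knockout hearts held 1537 to 1957 CPM of 6 fibroblast markers against 1384 to 1734 CPM in wild type, and 182 to 195 CPM of 7 macrophage markers against 158 to 261 CPM, highest in W6. Their part in the Slc9a9 values was not tested. In whole-heart RNA, a change in the number of cells of a type cannot be told apart from a change of RNA per cell.

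Slc9a7 encodes NHE7, an exchanger of the trans-Golgi network. It lies on chromosome X from 20098851 to 20292035. Values were 2.60, 3.26 and 4.22 CPM in wild type, and in knockout 1.83, 2.75 and 3.06 CPM (lowest, median, highest), from 20 to 51 reads per library. Of the knockout hearts 6 of 6 lay below the wild-type median. W1, W3, W4 and W5 lay above every knockout heart, and K8, K10 and K11 lay below every wild-type heart. Its log2 fold change was -0.37 (SE 0.22, 95% interval -0.82 to 0.08; edgeR adjusted p = 0.999). The exact two-sided permutation p for mean CPM was 0.039, uncorrected, and it rose to between 0.0519 and 0.0844 when W1, W3, W4, W5, K8, K10 or K11 was left out. When W2, W6, K7, K9 or K12 was left out, that uncorrected p was 0.00866 to 0.0411, lowest without W6. The annotated end of the gene overlaps Chst7, which had 20 to 50 reads per library. GENCODE M21 does not show this overlap and lists only the pseudogene Gm9083 within Slc9a7. Without a stated strand setting, reads of a stretch shared with Chst7 cannot be assigned to either gene. Nor can those of antisense genes annotated within Slc9a2 and Slc9a9.

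Slc9a8 encodes NHE8, an exchanger of the Golgi apparatus that also reaches the apical membrane of epithelial cells. It lies on chromosome 2 from 167421599 to 167477000. Values were 28.4, 33.1 and 38.9 CPM in wild type, and in knockout 32.3, 37.7 and 43.4 CPM (lowest, median, highest). K7 and K12 lay above every wild-type heart, and W2 and W5 lay below every knockout heart. Its log2 fold change was 0.18 (SE 0.09, 95% interval -0.01 to 0.37; edgeR adjusted p = 0.999). Without W2 and K7 that fold change was 0.10. For the difference in mean CPM over all 12 hearts the exact two-sided permutation p was 0.0823, uncorrected.

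**Figure D3:**
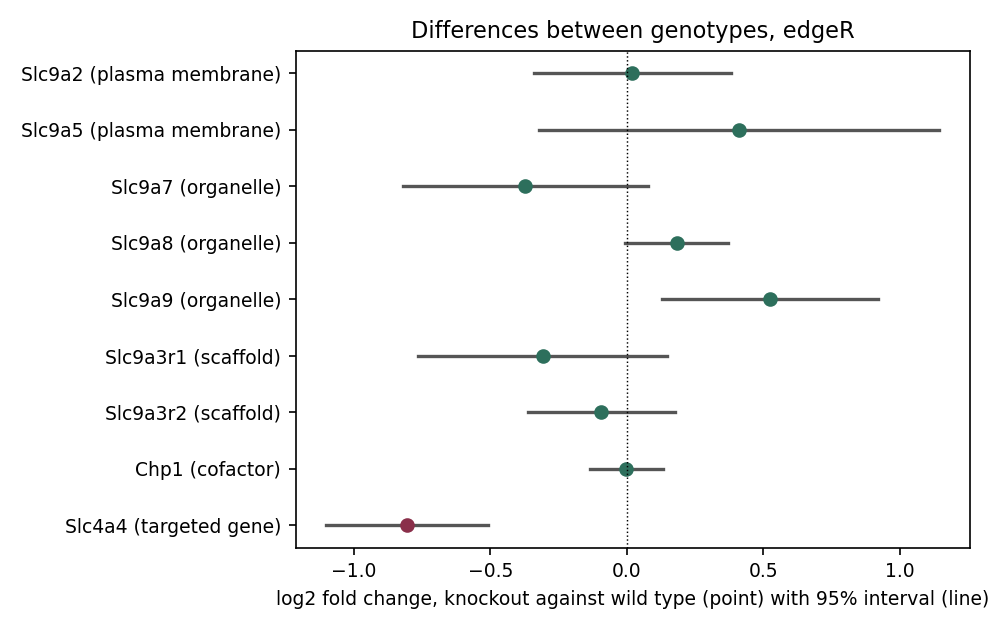
Log2 fold change of knockout against wild type (horizontal axis) for the 8 genes and the targeted gene Slc4a4, with edgeR estimates as points and 95% intervals as lines. The intervals of 7 genes cross 0, that of Slc9a9 runs from 0.13 to 0.92, and that of Slc4a4 from -1.10 to -0.51.

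The 3 organelle genes and the 2 plasma membrane genes of the set were summed within each heart. The sums leave out other genes of the family, so they are not totals for the organelles or the plasma membrane of the heart. Slc9a7, Slc9a8 and Slc9a9 together held 5.14 ± 0.45 CPM per kilobase in wild type and 5.71 ± 0.47 in knockout (SD, n = 6 each). Slc9a2 and Slc9a5 together held 1.36 ± 0.26 and 1.48 ± 0.14 CPM per kilobase. The first sum exceeded the second by 3.09 to 4.59 times in wild-type hearts and by 3.60 to 4.39 times in knockout hearts, with means of 3.84 ± 0.52 and 3.87 ± 0.29. The knockout range of this ratio lay inside the wild-type range. With the longest GENCODE transcript as the length in place of merged exons the mean ratios were 4.98 and 5.06, so the size of the ratio depends on the length taken for each gene.

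Of the sum over Slc9a7, Slc9a8 and Slc9a9, Slc9a8 made up 71.0 ± 2.9% in wild type and 72.7 ± 3.5% in knockout. The share of Slc9a7 was 17.4 ± 3.1% and 12.1 ± 1.8%, and that of Slc9a9 was 11.6 ± 2.2% and 15.2 ± 3.5% (SD, n = 6 each). The level of Slc9a9 relative to Slc9a7 was 0.501, 0.615 and 1.21 in wild type and 0.799, 1.31 and 1.75 in knockout (lowest, median, highest). In wild type 5 of 6 hearts lay below every knockout heart, and W6 alone lay above 1. This pair was chosen after its values were seen, so the ratio is a description without a test. Of the sum over Slc9a2 and Slc9a5, Slc9a2 made up 61.6% to 92.9% in wild type and 58.6% to 87.2% in knockout.

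**Figure D4:**
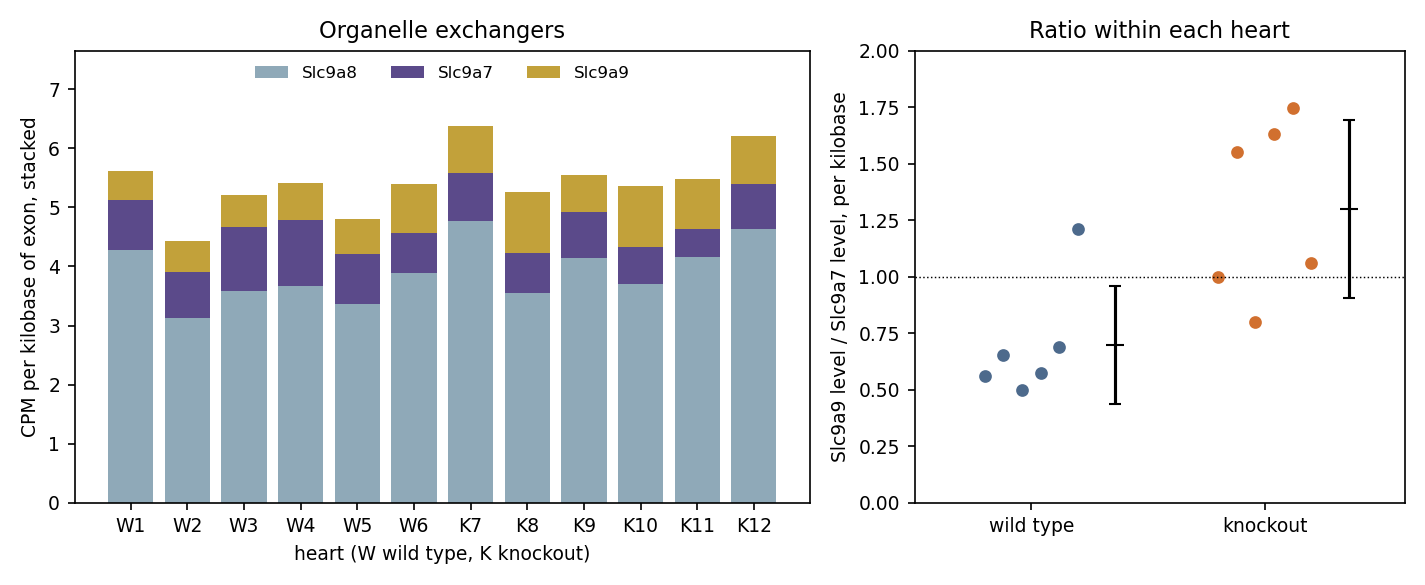
Left, levels of Slc9a8, Slc9a7 and Slc9a9 stacked in each heart, in CPM per kilobase of exon. Right, the ratio of Slc9a9 to Slc9a7 in each heart with the mean ± SD of each group; 5 wild-type hearts lie at 0.501 to 0.689, W6 at 1.21, and knockout hearts at 0.799 to 1.75.

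Slc9a3r2 encodes NHERF2 and Slc9a3r1 encodes NHERF1, scaffolds whose PDZ domains bind the tails of exchangers, receptors and channels, and whose end binds ezrin, radixin and moesin beneath the membrane. Slc9a3r2 lies on chromosome 17 from 24639281 to 24650305. Its values were 49.0, 58.8 and 70.0 CPM in wild type, and in knockout 39.7, 54.6 and 70.2 CPM (lowest, median, highest). The knockout hearts spread on both sides of the wild-type range, with K10, K11 and K12 below it and K7 just above it. The log2 fold change of Slc9a3r2 was -0.09 (SE 0.13, 95% interval -0.36 to 0.18; edgeR adjusted p = 0.999). It was -0.0092 without K11 and -0.18 without K7. Its coefficient of variation over the 12 hearts was 17.7%, where counting alone gives 3.83%, so most of the spread went beyond counting. With 1 library per heart, spread between hearts and spread between library preparations cannot be told apart.

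Slc9a3r1 lies on chromosome 11 from 115163341 to 115181178. Its values were 2.81, 3.54 and 4.10 CPM in wild type, and in knockout 1.52, 3.07 and 3.30 CPM (lowest, median, highest). W2, W3, W4 and W5 lay above every knockout heart, while 4 knockout hearts lay within the wild-type range. Its log2 fold change was -0.31 (SE 0.22, 95% interval -0.77 to 0.15; edgeR adjusted p = 0.999), and the exact two-sided permutation p for mean CPM was 0.0628, uncorrected. K12, with 17 reads, was the lowest heart, and without it the log2 fold change was -0.18. Per kilobase, NHERF2 transcripts exceeded NHERF1 transcripts by 10.1 to 18.1 times in wild-type hearts and by 8.75 to 23.4 times in knockout hearts. The highest ratio of each group was in its heart with the lowest Slc9a3r1 CPM, W1 and K12. Slc9a3r1 had only 17 to 51 reads per library.

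Chp1 encodes calcineurin B homologous protein 1, a calcium-binding EF-hand protein that plasma membrane exchangers need as a bound cofactor. It lies on chromosome 2 from 119547707 to 119587024. It was the most precisely measured of the 8 genes, with 1730 to 2359 reads per library. Values were 152.1, 171.5 and 190.8 CPM in wild type, and in knockout 158.5, 170.8 and 190.7 CPM (lowest, median, highest), and the 2 ranges were nearly the same. The log2 fold change was 0.00 (SE 0.06), and its 95% interval of -0.14 to 0.13 spans 0.911-fold to 1.10-fold (edgeR adjusted p = 0.999).

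For each gene, the named gene most alike over the 12 hearts was found by the mean absolute difference of standardised log2 CPM among 12990 named genes. These were Folr2 for Slc9a2 (0.379 SD), Lpxn for Slc9a5 (0.331), Pds5a for Slc9a7 (0.352), Pole3 for Slc9a8 (0.353) and Enpp6 for Slc9a9 (0.367). They were Rbm15 for Slc9a3r1 (0.345), Rasgrp2 for Slc9a3r2 (0.319) and Stxbp6 for Chp1 (0.317). Within the 8 genes the closest pair was Slc9a2 and Slc9a8, at 0.627 SD, where the median over all genes was 1.07 for Slc9a2. With 12 hearts and so many genes such likeness describes these libraries alone.

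No partner gene of the exchangers passed the test, where 0.0% of all 13832 genes passed with edgeR. Of all genes 50.6% had a positive fold change, the share to set beside the signs given for each list. Of 8 genes whose products bind CHP1 or are held in check by it, 0 passed over all genes, and 6 had positive and 2 negative fold changes, with a median log2 fold change of 0.07. Kif1b, a kinesin motor that CHP1 binds, had 492.1, 533 and 549.9 CPM in wild type, and in knockout 555.7, 613.1 and 643.3 CPM (lowest, median, highest). The groups did not overlap, with all 6 knockout values higher, where 0.239% of all genes had groups that did not overlap. The exact two-sided permutation p of 0.00216, uncorrected, is the smallest that 6 against 6 hearts can give. Kif1b was named because it had the smallest p of its list, so this separation is a description. Its log2 fold change of 0.19 (SE 0.05) did not pass over all genes (edgeR adjusted p = 0.999). The DESeq2 adjusted p was 0.0658 over 19308 genes and 0.127 over the 13832 genes of the edgeR fit. Gapdh, a glycolytic enzyme that CHP1 also binds, averaged 2439 and 2669 CPM (wild type first, as in the pairs that follow).

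Among 21 tested partners of the NHERF scaffolds, 10 had positive and 11 negative fold changes and 0 passed, with a median log2 fold change of -0.01. Rack1, a scaffold protein of ribosomes and kinases, stood at 153 and 169 CPM, a log2 fold change of 0.14 (exact two-sided permutation p = 0.0368, uncorrected; edgeR adjusted p = 0.999). Pdzk1, which encodes a related PDZ scaffold, stood at 5.03 and 3.85 CPM, a log2 fold change of -0.40 (edgeR adjusted p = 0.999). Of 14 partners of organelle exchangers, which also include Rack1, 8 had positive and 6 negative fold changes and 0 passed. Vps35, a subunit of the retromer that recycles endosomal cargo, stood at 305 and 331 CPM, a log2 fold change of 0.11.

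The 20 kinases and phosphatases known to act on sodium-proton exchange divided into 13 positive and 7 negative fold changes, with a median log2 fold change of 0.02 and 0 passing. Camk2d, the main calcium-calmodulin kinase of the heart, averaged 389 and 414 CPM, and Ptpn11, a tyrosine phosphatase, 384 and 364 CPM. For 24 genes of the vacuolar proton pump and of endosomal chloride exchangers, the counterparts of the organelle exchangers in luminal pH, 17 fold changes were positive and 7 negative, and 0 passed, with a median log2 fold change of 0.04. Atp6ap2, an accessory subunit of that pump, averaged 63.4 and 68.6 CPM, and the subunit gene Atp6v0e2 averaged 6.69 and 7.78 CPM. Of 9 other genes for cation-proton antiport and its cofactors 4 were abundant enough to test, namely Chp2, Tesc, Letm1 and Tmem165. Their log2 fold changes ran from -0.04 to 0.05, and 0 passed. Tesc, a relative of Chp1, stood at 138 and 135 CPM, and Tmem165, a Golgi transporter, at 24.1 and 23.6 CPM. Slc9a3, Slc9a4, Slc9b1, Slc9b2 and Slc9c1 were too low to test, with 93, 90, 86, 31 and 0 reads over all libraries.

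**Figure D5:**
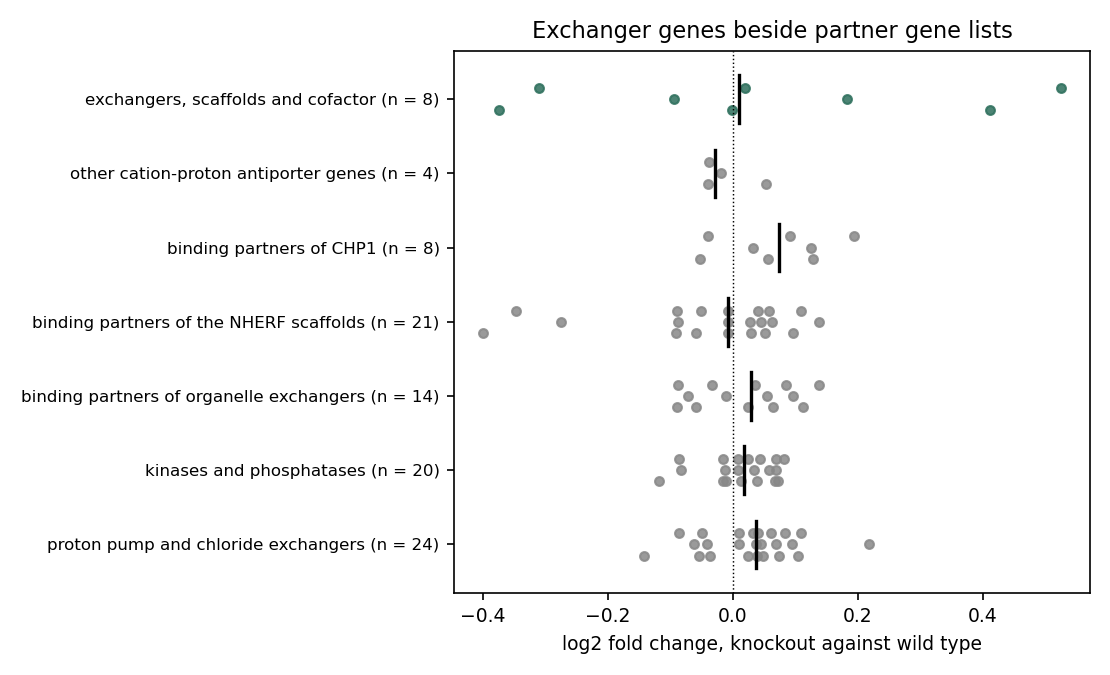
Log2 fold change of knockout against wild type (horizontal axis) for each tested gene of the exchanger set and of 6 partner lists, with 1 point per gene and a black line at each list's median. The exchanger set spans -0.37 to 0.52 with a median of 0.01, and the medians of the partner lists lie between -0.03 and 0.07.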

How the data were processed

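The deposited table holds raw read counts per NCBI gene identifier for 12 heart libraries, 6 per genotype, made by the authors. TopHat alignment is stated in the design text; bcl2fastq, DESeq and CASAVA 1.8 are named in the submitters' processing notes, with the mm10 build. How reads were assigned to genes, and whether by strand, the sources used here do not say. Names and positions came from RefSeq GRCm38.p6, the same build, for 23976 identifiers, and exon lengths from GENCODE M21.

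Counts were filtered with filterByExpr (minimum count 10, minimum total 15), scaled by TMM and tested by quasi-likelihood in edgeR 4.0.16 (R 4.3.3), adjusting p over 13832 genes by Benjamini-Hochberg with a threshold of 0.05. The F statistic gave the standard errors. CPM uses the total counts of a library. Single genes were also compared by exact permutation. DESeq2 1.42.0 (on all genes with its own filter, 19308 genes, and on the 13832), limma-voom (limma 3.58.1), other scalings and filters, and removal of hearts were alternatives. Scripts were tested on simulated counts.

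The named genes are the 8 members, Slc4a4, per list the called genes or else the 2 with the smallest p, and the most alike gene (log2 CPM with 0.1 added). Marker genes and overlapping genes were named after their values were seen. The members and lists were chosen with earlier results of these data known. Mice were taken as separate from the design text. Some genes of the family are not reported here. Plots were drawn with matplotlib 3.10.9.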

Additional observations from a re-analysis of the deposited data

Results flagged for a closer look

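In groups of 6 hearts, 60 sets of values were searched for a single heart far from the others, and 4 were found where chance gives about 3, or 1 in 20. Slc9a3r1 was low in K12, at 1.52 CPM against 2.67 CPM in the next knockout heart. The ratio of Slc9a9 to Slc9a7 was high in W6, at 1.21 against 0.689 in the next wild-type heart. The ratio of Slc9a3r2 to Slc9a3r1 per kilobase was high in W1, at 18.1 against 12.0. Of the knockout libraries K7 was deepest, with 12756955 counts against 11351783 in the next.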

How the results depend on the processing

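No member passed the adjusted threshold under any of 23 alternatives, which includes an adjusted p of 0.1. Over all genes the edgeR count called was 0, with 562 at an unadjusted p under 0.05, and it became 16 without a count filter, 11 with DESeq2 under its own filter (19308 genes), 6 with DESeq2 on the same 13832 genes, chosen after seeing the data, 3 at an adjusted p of 0.1 and 0 to 2 with 1 heart left out, while limma-voom called 0. Without W6, K7, K8 or K9 the count was 1, and without K11 or K12 it was 2. The number of members with an unadjusted p under 0.05 was 1 to 2 with 1 heart left out, since Slc9a8 joined Slc9a9 without W1, K8 or K10. For Slc9a9 the edgeR unadjusted p ran from 0.00477 to 0.0325 over the alternatives. Slc4a4 passed with DESeq2 (adjusted p = 0.000605, or 0.000442 on the 13832 genes), without a count filter (edgeR adjusted p = 0.0135) and without K8 (edgeR adjusted p = 0.0275).

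Signs changed for genes near 0. The log2 fold change of Slc9a2 (0.02) was -0.12 without W2 and K7 and -0.0855 to 0.164 with 1 heart left out, and its CPM difference was -0.64 and -0.467 to 0.832. That of Chp1 (0.00) was 0.005 with library totals, 0.037 without W2 and K7 and -0.0326 to 0.0202 with 1 heart left out, and its CPM difference was -0.158 with TMM-scaled CPM, chosen after seeing the data, and -3.35 to 4.4 with 1 heart left out. With 1 heart left out, Tmem165 ran from -0.104 to 0.0096 and Tesc from -0.109 to 0.0361 (log2). For the difference in mean CPM, the exact permutation p of Slc9a8 was 0.039 without W1 and 0.0433 without K8, and that of Slc9a3r1 was 0.0216 without W1 and 0.039 without K11. The ratio of the organelle sum to the plasma membrane sum was 4.98 in wild type and 5.06 in knockout with the longest GENCODE transcript as length, chosen after seeing the data, and 3.69 to 3.99 and 3.77 to 3.93 with 1 heart left out. The cause was not tested. RefSeq transcript lengths, listed as another choice of length, were not run. No paired analysis was possible because the groups share no replicate numbers. Slc9a5, Slc9a7, Slc9a9 and Slc9a3r1 rest on 5 to 67 reads per library.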
